A study of Homo sapiens with 4 samples.

Results

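The genes described here are 2 interferons, the receptor chains that bind interferons of all 3 types, and 2 SOCS proteins that shut those receptors down. The members are IFNB1, IFNL1, IFNAR1, IFNAR2, IFNGR1, IFNGR2, IFNLR1, IL10RB, SOCS1 and SOCS3, 10 of the 16543 genes named by the array. They were found as the probesets whose annotation names exactly 1 of them, with IFNL1 listed under its older symbol IL29 and IFNLR1 under IL28RA. This gave 103 of 232479 probesets, where a probeset groups the few probes that read 1 exon or a piece of it. RNA of T-47D, a breast cancer cell line of the luminal type that carries estrogen and progesterone receptors, was measured on Affymetrix exon arrays. For the 2 mimic arrays, cells received the p-27-5p mimic, which stands in for an artificial microRNA, at 200 nM. For the 2 control arrays, cells received a pre-miR negative control, whose own dose, like the time to RNA extraction, the labels do not state. All cells were transfected with TurboFect reagent in antibiotic-free medium, and untransfected cells were not analysed here. The labels do not tell separate cultures from repeat arrays, so p-values measure the spread between arrays alone, and that spread may be technical.

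Interferons are secreted proteins that warn cells of infection. IFNB1 is a type I interferon and acts through the receptor chains IFNAR1 and IFNAR2. IFNL1 is a type III interferon and acts through IFNLR1 and IL10RB, a pair found mainly on epithelial cells. Interferon gamma, the type II interferon of lymphocytes, acts through IFNGR1 and IFNGR2. All these receptors signal through JAK kinases and STAT factors, and target genes of that signal include SOCS1 and SOCS3, whose proteins bind the receptor complexes and stop them.

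Levels are log2 signals. A gene level is the mean of the gene's probesets that averaged 4.08 or more over the 4 arrays, a filter set at the 25th percentile of all values. Changes are mimic minus control on that log2 scale, tested with limma over all 15719 genes that passed this filter and adjusted by the Benjamini-Hochberg method, with a threshold of 0.05. Of the 10 members, 9 had a probeset past the filter, and IFNB1 had none and was read from the fit of all 16543 genes without a filter. As a guide to background, 13 measured genes of liver and neurons had a median level of 3.73 in mimic and 3.62 in control arrays without a filter, and none was above 6.20 in mimic or 6.50 in control arrays. The 8 luminal markers of T-47D cells, ESR1 and KRT8 among them, had a median of 9.48 in mimic and 9.64 in control arrays, and limma called 0 of them (3 were lower at an unadjusted p under 0.05, against 12.8% of all genes). The 8 measured leukocyte markers averaged 4.09 and 4.10 on the mimic arrays and 3.98 to 4.11 on the control arrays. The 3 measured markers of plasmacytoid dendritic cells, a blood cell type known for making interferon, averaged 3.61 to 3.65 and 3.67 to 3.73, and 4 fibroblast markers 4.71 to 4.77 and 4.53 to 4.66, in mimic and control arrays in that order. The leukocyte and dendritic cell averages thus lay near those of the liver and neuron genes, which were 3.96 to 4.11 in mimic and 3.90 to 4.03 in control arrays. In total RNA of a culture, fewer expressing cells and less RNA per cell cannot be told apart.

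Both interferon genes were higher in the mimic arrays, SOCS1 was higher without passing the threshold, SOCS3 was level, and the receptor chains differed by less than 1 on the log2 scale in either direction. Limma called 1 of the 9 tested members higher (IFNL1) and 0 lower, against 1.52% of all genes called higher. At an unadjusted p under 0.05, 5 of the 9 were higher (IFNL1, SOCS1, IFNGR2, IFNGR1 and IL10RB), against 7.65% of all genes. Both mimic arrays lay above both control arrays for these 5 members and below them for 1, IFNAR1, against 20.5% and 29.5% of all genes. The median change of the 9 was 0.39, beside 0.00 for all genes tested. IFNL1 and SOCS1 each passed the filter in part through a probeset whose control mean was under it, so the counts over the 9 are a description.

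**Figure D1:**
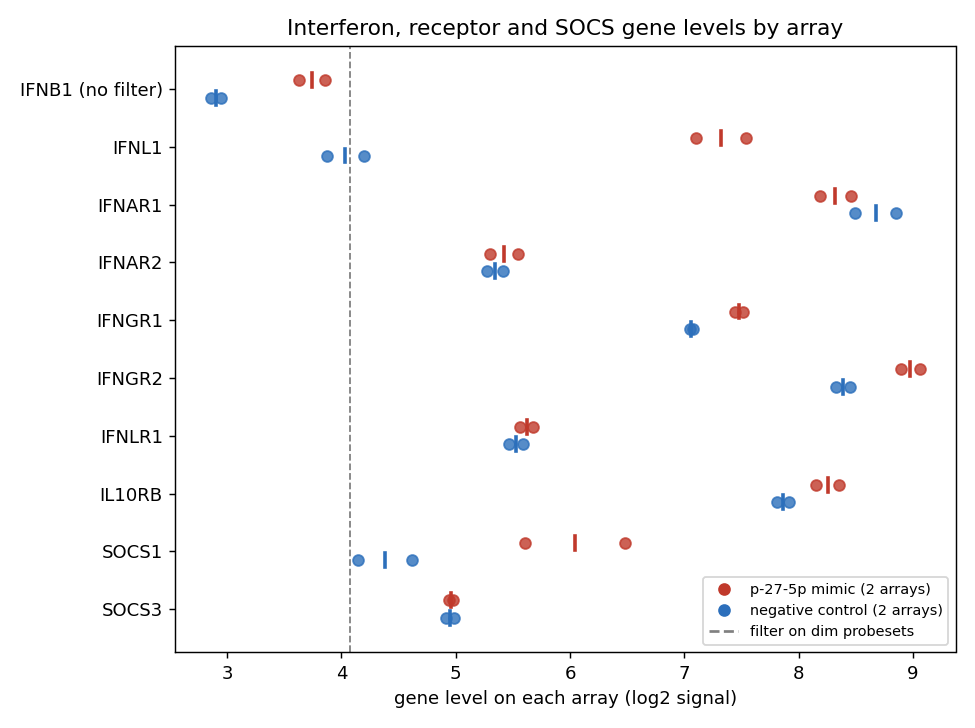
Gene level (log2 signal, horizontal axis) of each member on the 2 mimic arrays (red) and the 2 control arrays (blue), with short bars at group means and a dashed line at the filter value of 4.08. IFNB1, plotted without the filter, and IFNL1 are well separated between groups, and SOCS1 is separated with a wide spread within each group. IFNGR1, IFNGR2 and IL10RB are separated by 0.39 to 0.59 on average. IFNAR1 has both mimic arrays below both control arrays, and IFNAR2, IFNLR1 and SOCS3 overlap.

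IFNL1 showed the clearest change of the members. It had 7.10 and 7.54 on the mimic arrays, against 4.20 and 3.87 on the control arrays, from the 3 of its 5 probesets that passed the filter. The groups are far apart, with the control arrays at the filter value. IFNL1 rose by 3.28 (SE 0.203, 95% confidence interval 2.77 to 3.80), a 9.74-fold higher level in the mimic arrays with a limma adjusted p of 0.00201. With all 5 probesets the change was 2.24 (SE 0.154), a 4.72-fold higher level. Fold changes against a level near background can understate a change. The 9.74-fold value also rests in part on a probeset that passed the filter through its mimic values, so it is no lower bound.

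The 5 probesets of IFNL1 did not move equally. The one with the largest change had 8.39 and 8.31 on the mimic arrays, against 3.69 and 3.23 on the control arrays, a change of 4.89 (SE 0.228; limma adjusted p = 0.00276 among 174802 probesets). Its control mean of 3.46 is under the filter value, so it entered that fit through its mimic values, and in the fit of all 232479 probesets without a filter its adjusted p was 0.00238. A second called probeset had 6.39 and 6.68 in mimic against 4.37 and 3.84 in control arrays (change 2.43, adjusted p = 0.0326, and 0.0329 without a filter). These 2 were the called ones among 84 member probesets past the filter, where 0.795% of all probesets tested were called higher, and that count is a description. Without a filter 3 of all 103 member probesets were called, these 2 and 1 of IFNB1, against 0.591% of all probesets called higher. The next had 6.52 and 7.61 in mimic against 4.53 and 4.55 in control arrays (change 2.53, adjusted p = 0.0883). The remaining probesets were dim on every array, at 4.28 and 4.51 in mimic against 3.31 and 3.33 in control arrays, and at 4.19 and 4.04 in mimic against 4.19 and 3.50 in control arrays, the last being the 1 probeset of IFNL1 whose groups overlap.

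The neighbouring type III interferon genes IFNL2 and IFNL3, listed as IL28A and IL28B, share 1 probeset that the annotation gives to both, so it belongs to no member and its source gene cannot be told. It had 9.38 and 9.07 on the mimic arrays, against 2.90 and 2.90 on the control arrays. The control values are under the filter value, so the probeset entered the fit through its mimic values, and the control level has only a bound. Set against the filter value of 4.08 in place of the control mean, the signal was at least 35.4-fold higher in the mimic arrays. The fitted difference was 6.33 (SE 0.202, limma adjusted p = 0.0017), and without a filter its adjusted p was 0.00137. IFNL1 is a close relative of both genes, and how far their transcripts reach each other's probes was not tested.

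IFNB1 was read by 4 probesets, all below the filter. The probeset with the largest change had 4.85 and 5.19 on the mimic arrays, against 2.76 and 2.71 on the control arrays, a difference of 2.28 (limma adjusted p = 0.0187 over all probesets without a filter). The next had 4.13 and 4.70 in mimic against 3.27 and 3.36 in control arrays, a difference of 1.10. On both of these probesets the control arrays lay under the filter value and both mimic arrays above it. The other 2 read between 2.71 and 2.83 on the mimic arrays, against 2.60 to 2.91 on the control arrays, and their groups overlap.

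Averaged over all 4 probesets, IFNB1 had 3.63 and 3.86 on the mimic arrays, against 2.86 and 2.95 on the control arrays. In the fit without a filter it rose by 0.84 (SE 0.132, limma adjusted p = 0.00466), and no fold is given because both group means are under the filter value. In that fit 4 of the 10 members were called higher (IFNB1, IFNL1, SOCS1 and IFNGR2), against 3.26% of all genes. With the median of its probesets in place of the mean, IFNB1 had 0.79 (adjusted p = 0.0551).

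**Figure D2:**
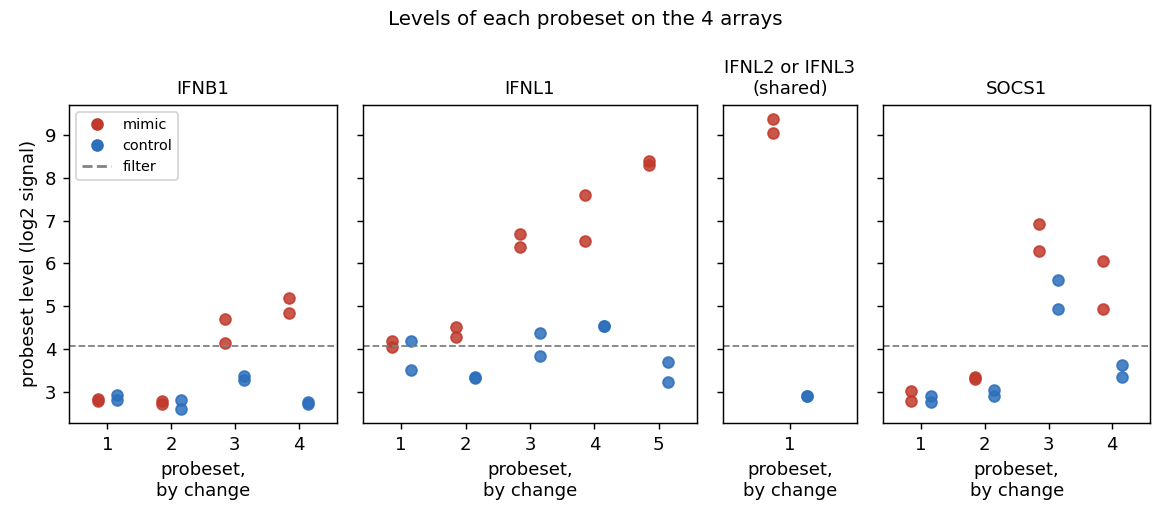
Level (log2 signal, vertical axis) of every probeset of IFNB1, IFNL1 and SOCS1 and of the probeset shared by IFNL2 and IFNL3, in order of change within each gene, with the 2 mimic arrays in red left of the 2 control arrays in blue and the filter value dashed. In each member gene some probesets stay dim in both groups while others separate, by up to 4.89 for IFNL1, 2.28 for IFNB1 and 2.01 for SOCS1, and the shared probeset separates by 6.33.

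The upstream sequences of the 3 members that differed most are given because their genes are known to be switched on through short elements next to the start site. RefSeq's table for GRCh38.p14 held 9 of the 10 members. Shown 5′ to 3′ on the gene's strand are the 250 bases before the start of IFNB1 (chr9:21077943-21078192, minus strand), IFNL1 (chr19:39296157-39296406, plus strand) and SOCS1 (chr16:11256205-11256454, minus strand). Capitals mark matches, on either strand, to GAAANNGAA, a core of the interferon-stimulated response element, to AANNGAAA, the shorter core bound by IRF proteins, and to GGGNNNTTC, part of a motif for NF-kB.
IFNB1: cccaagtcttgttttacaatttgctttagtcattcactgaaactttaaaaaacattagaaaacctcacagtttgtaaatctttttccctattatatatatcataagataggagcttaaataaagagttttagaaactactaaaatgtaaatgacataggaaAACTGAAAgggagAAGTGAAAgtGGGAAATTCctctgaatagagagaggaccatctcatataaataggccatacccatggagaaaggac
IFNL1: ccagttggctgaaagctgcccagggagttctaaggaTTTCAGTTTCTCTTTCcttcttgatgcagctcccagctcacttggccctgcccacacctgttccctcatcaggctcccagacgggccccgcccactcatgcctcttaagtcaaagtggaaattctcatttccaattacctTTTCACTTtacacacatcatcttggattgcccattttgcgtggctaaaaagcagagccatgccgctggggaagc
SOCS1: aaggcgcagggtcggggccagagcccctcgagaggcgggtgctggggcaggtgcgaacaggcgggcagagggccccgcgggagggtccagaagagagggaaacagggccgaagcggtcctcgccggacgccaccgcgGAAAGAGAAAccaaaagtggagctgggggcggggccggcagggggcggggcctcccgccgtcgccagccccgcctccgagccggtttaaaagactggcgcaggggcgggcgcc

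The IFNB1 window held 2 matches to AANNGAAA, which begin 89 and 76 bases before the start, and next to the second a match to GGGNNNTTC that begins at 66 bases. This stretch is the well-studied virus-response enhancer of IFNB1, to which IRF and NF-kB proteins bind side by side. The IFNL1 window held 2 overlapping matches to GAAANNGAA on the opposite strand, 213 and 207 bases before the start. It held 3 to AANNGAAA, of which 2 overlap those and the third lies at 74 bases. The SOCS1 window held 1 match to GAAANNGAA, at 113 bases, which overlaps its match to AANNGAAA. Of 35116 windows of 250 bases in the table, 6.88% held GAAANNGAA, 20.3% AANNGAAA and 13.3% GGGNNNTTC. The windows of IFNAR1, IFNGR1, IFNGR2, IFNLR1, IL10RB and SOCS3 held neither IRF core, while GGGNNNTTC had 1 match each in windows of IFNGR2, IFNLR1 and SOCS3. The STAT motif TTCNNNGAA, not capitalised above, was in the windows of IFNB1 and IFNLR1 and in 6.57% of all windows. A match is a run of letters and was not tested as a binding site.

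SOCS1, which blocks JAK kinases at the type I and type II receptors, had 5.61 and 6.48 on the mimic arrays, against 4.62 and 4.14 on the control arrays. The groups do not overlap, and the arrays of each group are widely spread. The change was 1.67 (SE 0.328, 95% confidence interval 0.84 to 2.49), a 3.17-fold higher level, with a limma p of 0.00325 unadjusted and 0.0761 adjusted, so SOCS1 missed the threshold. Its adjusted p was under the threshold with a change of 2.10 without mimic replicate 1 (adjusted p = 0.013), of 1.90 without control replicate 1 (0.000584) and of 1.43 without control replicate 2 (0.00768). It did not pass without mimic replicate 2 (change 1.23, adjusted p = 0.124). Each of these fits leaves 1 array in a group, which is assumed to vary like the 2 arrays of the other group, so they show that the value depends on single arrays and do not make SOCS1 a call. The 3.17-fold level rests in part on a probeset whose control mean was under the filter value. Without a filter the change of SOCS1 was 0.94, a 1.91-fold higher level (adjusted p = 0.011).

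SOCS1 was read by 4 probesets, of which 2 passed the filter. The one with the largest change had 4.93 and 6.05 on the mimic arrays, against 3.62 and 3.35 on the control arrays (2.01, adjusted p = 0.149). Its control mean of 3.48 is under the filter value, so it entered the fit through its mimic values. The brighter one had 6.29 and 6.92 in mimic against 5.61 and 4.94 in control arrays (1.32, adjusted p = 0.206). The other 2 read between 2.77 and 3.33 on all arrays.

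SOCS3, the brake on receptors of the interleukin-6 family that also acts on interferon receptors, had 4.98 and 4.94 on the mimic arrays, against 4.91 and 4.99 on the control arrays. The mimic values lie between the control values. The difference was 0.01 (SE 0.119, 95% confidence interval -0.29 to 0.31; limma adjusted p = 0.979). Of its 10 probesets, 6 were above 0 and 4 below, 8 had overlapping groups, and none had a mean over 5.83. The mimic arrays lay both above the control arrays on 1 and both below on 1, against 20.8% and 23.3% of all probesets. Without a filter SOCS3 had 4.55 in mimic and 4.53 in control arrays, within the range of the liver and neuron genes read the same way. The top of that range is SYT1 (6.20 and 6.50), and the next gene is APOA1 (5.12 and 5.17). Without a filter IFNAR2 (5.30 and 5.27) lay above APOA1 and below SYT1, and IFNLR1 (5.14 and 4.97) lay near APOA1. Single probesets of both were brighter, with a mean of up to 6.84 for IFNAR2 and 8.43 for IFNLR1.

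The type II receptor chains were both higher in the mimic arrays and both missed the threshold. IFNGR2, the signalling chain that brings in JAK2, had 8.89 and 9.06 on the mimic arrays, against 8.32 and 8.45 on the control arrays. The change was 0.59 (SE 0.133), a 1.51-fold higher level with a limma adjusted p of 0.0987, and it was called at 0.51 without a filter (adjusted p = 0.0349) and under an intensity trend (adjusted p = 0.0148). IFNGR1, the chain that binds interferon gamma and JAK1, had 7.51 and 7.44 on the mimic arrays, against 7.07 and 7.05 on the control arrays. The change was 0.41 (SE 0.119), a 1.33-fold higher level (limma adjusted p = 0.146).

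The probesets of these chains mostly agreed in direction. Of 10 probesets of IFNGR2, 9 were above 0, from 0.09 to 0.89, and the 1 below, at -0.22, was the dimmest and did not pass the filter. Of 12 probesets of IFNGR1, 9 were above 0. Its largest change was 1.26, on a probeset with 8.47 and 8.65 in mimic against 7.62 and 6.99 in control arrays (unadjusted p = 0.00555, adjusted p = 0.165). Both mimic arrays lay above both control arrays on 6 probesets of each gene, against 20.8% of all probesets of the table. Probesets of 1 gene read the same transcripts and are no replicates.

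IL10RB, which serves type III interferon and also interleukin-10 and its relatives, had 8.15 and 8.35 on the mimic arrays, against 7.81 and 7.92 on the control arrays. The groups do not overlap, and the change was 0.39 (SE 0.137), a 1.31-fold higher level with a limma adjusted p of 0.202. Of its 10 probesets, 9 were above 0 and 7 had both mimic arrays above both control arrays, against 20.8% of all probesets of the table. IFNLR1, the chain that gives type III interferon its own receptor, had 5.68 and 5.56 on the mimic arrays, against 5.59 and 5.46 on the control arrays. These values overlap, and the difference was 0.10 (SE 0.128, 95% confidence interval -0.23 to 0.42; limma adjusted p = 0.716). Of its 18 probesets, 13 were above 0 and 12 had overlapping groups. The mimic arrays lay both above the control arrays on 4 and both below on 2, against 20.8% and 23.3% of all probesets. The brightest probeset of IFNLR1 had 8.32 and 8.25 in mimic against 8.79 and 8.36 in control arrays, a difference of -0.29.

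The type I receptor chains did not pass the threshold. IFNAR1, the chain that brings in TYK2, had 8.18 and 8.45 on the mimic arrays, against 8.50 and 8.85 on the control arrays. It is the 1 member with both mimic arrays below both control arrays, with a change of -0.35 (SE 0.180, 95% confidence interval -0.81 to 0.10; limma adjusted p = 0.346). Of its 17 probesets, 16 were below 0 and the change ran from -0.86 to 0.06, and on 7 of them the mimic arrays were both below the control arrays, against 23.3% of all probesets of the table. The spread within a group was nearly as large as the difference, and the value was -0.18 without control replicate 2 and -0.53 without control replicate 1, with an adjusted p of 0.747 and 0.0988. IFNAR2, the chain that binds type I interferon most tightly, had 5.30 and 5.54 on the mimic arrays, against 5.28 and 5.42 on the control arrays. Its groups overlap, with a difference of 0.08 (SE 0.145, adjusted p = 0.805), and its 13 probesets split into 7 above 0 and 6 below, from -0.96 to 0.59.

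**Figure D3:**
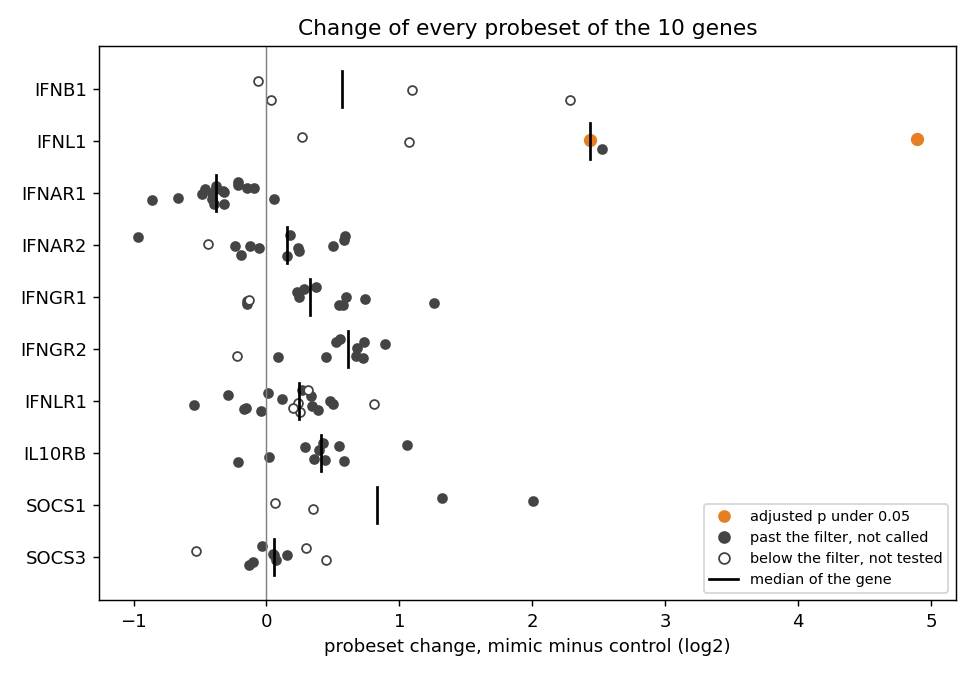
Change of each of the 103 probesets (mimic minus control, log2, horizontal axis) by member gene, with called probesets in orange, others past the filter in grey, those below the filter hollow and the gene's median as a bar. IFNL1 holds both called probesets, 16 of 17 probesets of IFNAR1 lie below 0, and 9 of 10 lie above 0 for IFNGR2 and for IL10RB.

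Of these receptor genes, 4 stand side by side on chromosome 21 in the order IFNAR2, IL10RB, IFNAR1 and IFNGR2. With symbols that hold a hyphen left out, no other protein-coding gene lies between them in RefSeq's list for GRCh38.p14. Along that order the changes were 0.08, 0.39, -0.35 and 0.59. None of the 4 was called with the filter (limma adjusted p = 0.805, 0.202, 0.346 and 0.0987 in that order). The 2 mimic arrays lay above both control arrays for IL10RB and IFNGR2, against 20.5% of all genes. For IFNAR1, which stands between them, they lay below, against 29.5% of all genes.

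Other parts of the pathway were read from lists of genes put together with results of these data known. Over all genes tested, 1.52% were called higher, the share to set beside the counts called in these lists. Of the factors known to bind the IFNB1 promoter, 2 of 8 rose: IRF1, with 8.27 and 8.31 in mimic against 5.03 and 4.83 in control arrays (3.36, SE 0.134, limma adjusted p = 0.000427), and IRF7, the IRF that amplifies interferon production, by 1.84 (SE 0.123, adjusted p = 0.00267). Of 6 kinases and factors below the receptors, STAT2 and IRF9, partners in the factor that carries type I and type III signals to the nucleus, rose by 2.00 (SE 0.134, adjusted p = 0.00274) and 2.23 (SE 0.120, adjusted p = 0.00118). The other 4 were not called and are named here after their values were seen. STAT3 had 0.84 (adjusted p = 0.0501), JAK2 0.85 (adjusted p = 0.0702), JAK1 -0.59 (adjusted p = 0.0776) and TYK2 -0.03 (adjusted p = 0.930). Of 10 other brakes, 1 rose: USP18, which displaces JAK1 from IFNAR2, with 8.94 and 9.11 in mimic against 6.32 and 6.50 in control arrays (2.61, SE 0.139, adjusted p = 0.00112).

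Limma called 0 of 5 other SOCS family genes, with SOCS5 at 0.43 (adjusted p = 0.132) and CISH at -0.41 (adjusted p = 0.177). At an unadjusted p under 0.05 there were 2, these same genes, 1 higher and 1 lower. Of all genes tested, 7.65% were higher and 12.8% lower at that p, the shares to set beside each list of this paragraph. Limma called 0 of 6 other class II cytokine receptor genes, the family of the receptor chains among the members. IL20RB, with 5.65 and 5.13 in mimic against 4.19 and 4.29 in control arrays, had 1.15 (adjusted p = 0.0604) and IL22RA1, a partner chain of IL10RB, 0.77 (adjusted p = 0.0634), and these 2 were the members with an unadjusted p under 0.05. It also called 0 of 6 receptor genes of the interleukin-6 family, which SOCS3 restrains, where OSMR, the oncostatin M receptor, had 0.81 (adjusted p = 0.0569) and LIFR 0.65 (adjusted p = 0.117). At an unadjusted p under 0.05, 3 of these were higher and 1 was lower, IL11RA with -0.60 (adjusted p = 0.130, named after its value was seen), against 7.65% and 12.8% of all genes. Of 20 other interferon genes, 13 had a probeset of their own, 5 passed the filter, limma called 0, and 2 had an unadjusted p under 0.05. These were IFNG, with -0.49 (adjusted p = 0.187), and IFNK, with 0.51 (adjusted p = 0.203), each read at under 5 on all arrays by 1 probeset past the filter. IFNL2 and IFNL3 are among the 20. The probeset they share, 6.33 higher in the mimic arrays, names both genes and is outside these counts.

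Downstream, all 10 antiviral target genes of type I and type III interferon rose, by 3.07 for the ubiquitin-like ISG15 to 7.66 for IFIT3, with a median of 5.78. Of 10 measured genes known mainly as targets of interferon gamma, 9 passed the filter and 6 rose, by 1.31 for GBP2 to 3.79 for GBP4, with a median of 2.46 over the 9. The others that rose were IRF1, GBP1, CXCL10 and ICAM1, several of which type I interferon or NF-kB also switches on. IFNG itself was not called. The control means of IFIT2, IFI44L, RSAD2, GBP1, GBP2, GBP4 and CXCL10 were under the filter value. These genes thus entered the fit in part through their mimic values. The counts and medians of these 2 lists are a description, beside 1.52% of all genes called higher. The genes whose levels over the 4 arrays, after subtracting the control mean, lay nearest to those of IFNL1 were IRF1, the complement gene C3 and HERC5, the ligase that attaches ISG15, at Euclidean distances of 0.310, 0.327 and 0.346 on the log2 scale. They rose by 3.36, 3.12 and 3.35, close to IFNL1 with the filter because they were chosen by that distance.

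**Figure D4:**
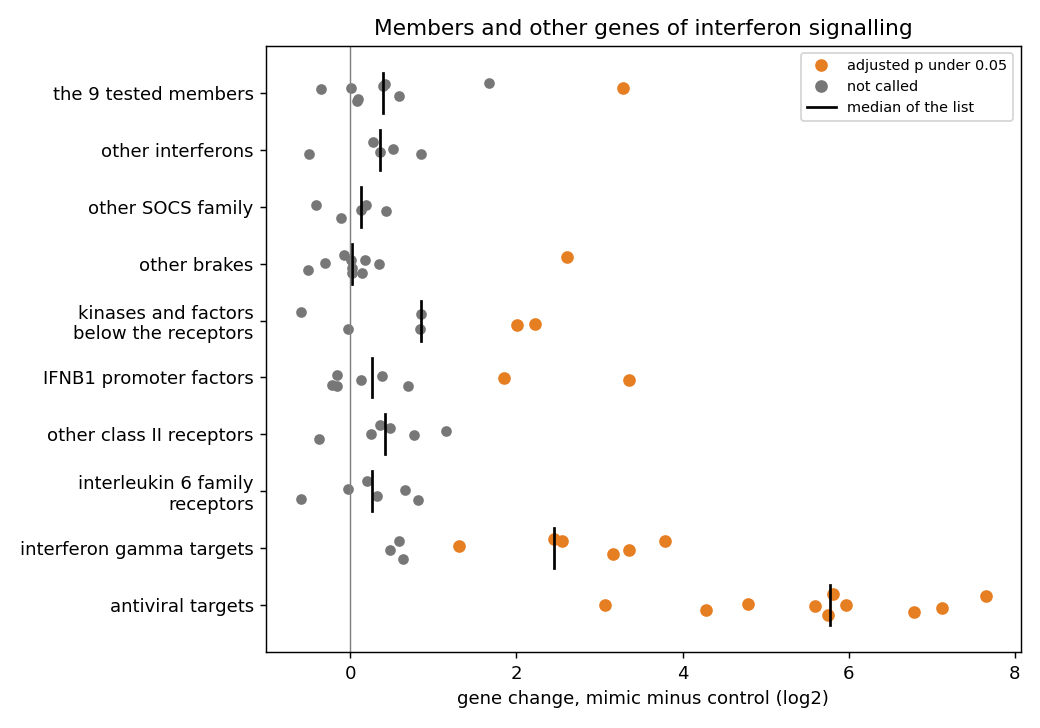
Change of each tested gene (mimic minus control, log2, horizontal axis) for the 9 tested members and 9 lists of related genes, with called genes in orange, others in grey and medians as bars. All 10 antiviral targets lie at 3.07 or more, and among the 9 tested members IFNL1, at 3.28, is the called one and the next, SOCS1, lies at 1.67.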

How the data were processed

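The authors deposited a log2 value for each exon-level probeset on each array. Partek, the RMA method and the build hg18 are named per the submitters' processing notes, with no version. The deposited log2 columns differ in spread (interquartile range 4.18 and 4.32 on mimic, 4.25 and 4.52 on control arrays), and r between arrays was 0.985 within mimic, 0.984 within control and 0.966 to 0.973 across groups. Symbols came from GEO's platform annotation, updated through RefSeq synonyms: 216780 probesets had 1 symbol (25769 updated), 2335 several and 13364 none.

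Mimic and control levels were tested by limma's lmFit and eBayes (version 3.58.1 under R 4.3.3, two-sided), over all genes and over all probesets past the filter. The fit had 2 residual degrees of freedom, 5.29 with the prior and 9.55 without a filter. SE is limma's moderated one. An exact permutation of 4 arrays cannot go below p = 0.333. The number of arrays limits the precision. Tables were read with data.table (version 1.17.8) and plots drawn with matplotlib 3.10.9 in Python 3.11.15, and the fit was tested on simulated data.

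Members, lists and tests were chosen with earlier results of these data known. The genes named are the 10 members, in each list those called or else the 2 with the smallest p, and the 3 nearest to each called member, with JAK1, JAK2, STAT3, TYK2 and IL11RA added after their values were seen. Alternatives were quantile normalization, array medians set equal, no filter, a stricter filter at the median of all values, leaving out each array, a block for the replicate number, an intensity trend, and the median or brightest probeset of a gene. Coordinates are RefSeq's, for GRCh38.p14.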

Additional observations from a re-analysis of the deposited data

Results flagged for a closer look

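The probeset shared by IFNL2 and IFNL3 lies outside the gene-level comparison because it names more than 1 gene. Its signal was higher in the mimic arrays by 6.33 on the log2 scale, above both control arrays, whose level of 2.90 is under the filter value.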

How the results depend on the processing

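Of all genes, 363 were called. The count was 1433 without a filter, 1594 with an intensity trend, 122 with the brightest probeset, and 172 to 1691 with an array left out. Of the members, 1 was called. It was 4 without a filter, 3 with an intensity trend, 0 with the stricter filter, which left IFNL1 and SOCS1 no probeset, and 1 to 2 with an array left out, where the lone array of a group is assumed to vary like the other group. Of member probesets, 2 were called, against 1 with the replicate block, 0 with the stricter filter, 4 with an intensity trend and 1 to 2 with an array left out. Of genes in the 9 pathway lists, 20 were called, and 19 to 33 with an array left out. IFNL1 was called under all 11 alternatives that gave it a value, with a change of 2.24 to 4.89 and an adjusted p of up to 0.0255. IFNB1, whose reported fit has no filter, was called under 9 of 10. SOCS1 was called under 5 of 11, with an adjusted p from 0.000584 to 0.253. Signs reversed, with no call, for SOCS3 with quantile normalization (-0.036) and with mimic replicate 1 or control replicate 1 left out (-0.030 to 0.047 over the 4 arrays left out), for IFNAR2 without mimic replicate 2 (-0.045 to 0.197 over the 4), and for IFNLR1 with its brightest probeset (-0.29). The cause was not tested. Replicate numbers are shared between groups, but 2 pairs cannot show that they pair the arrays. Deviations of same-numbered arrays correlated with r = 0.435 across genes, and with the replicate block 498 genes and 1 member were called.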
